A study of Bos taurus with 40 samples.

Results

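The 99 genes described here were much more abundant in skeletal muscle than in liver of Simmental cattle. They were chosen by their measured levels. An Ensembl gene id had to be listed in both the bull liver and the heifer muscle data, and its mean CPM (reads of the gene per 1000000 reads) over the 10 heifer muscle samples had to be at least 8 times the mean over the 10 bull liver samples. Of 4493 ids listed in both sets, 99 reached that ratio, out of 8531 ids listed in at least 1 of the 4 sets of the series. A pair of ids, ENSBTAG00000014614 and ENSBTAG00000045728, was left out by the rule, and neither had reached the ratio. All 99 members were also listed in bull muscle and 97 in heifer liver.

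The series asked which transcripts differ between cattle of high and low residual feed intake (RFI), the gap between the feed an animal eats and the feed its size and growth predict, so that a low RFI animal is the more efficient one. RNA was sequenced from biopsies of the liver and of M. longissimus thoracis et lumborum, the large muscle along the back. There were 40 samples in 8 groups of 5: high and low RFI bulls and heifers, each in both tissues. All animals were purebred Simmentals born by embryo transfer from dams ranked on RFI, were housed at about 15 months of age, had 14 days to adapt to the ration, and ate concentrate freely with a fixed amount of grass silage. No group received a further treatment, and each RFI group was the extreme of its own sex. Samples are named here by ear tag number or code.

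Skeletal muscle fibres contract by the sliding of actin and myosin filaments, which are held in register within the sarcomere and switched on by calcium through troponin and tropomyosin. Fibres also carry large amounts of creatine kinase, myoglobin and glycolytic enzymes, and slow and fast fibres use different versions of many of these proteins. Hepatocytes make little of this apparatus, although a liver biopsy also holds vessel walls and blood. The files pair no id with a gene name, and the reference gene table matched 0 of the 99 members, so the members are named by id only and their roles are not given. The lists of sarcomere, calcium handling, energy metabolism and cell type markers prepared for this work could for the same reason be matched to none of them, and the tissue labels were checked on the levels of the members themselves and of the ids at least 8 times higher in bull liver than in heifer muscle.

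Before any comparison, 7 samples were considered apart, and their levels of the members went against their tissue label or lay between the tissues. The 4 labelled bull muscle were left out by the rule that set the members. The 3 labelled heifer liver were left out because earlier results of these data showed a share of muscle profile in them. In the 10 heifer muscle samples the members together took 33.6% to 44.1% of the reads (39.3% ± 2.73, SD, n = 10), and in the 10 bull liver samples 0.411% to 0.466% (0.448% ± 0.0188, SD, n = 10). Among the libraries labelled bull muscle, M12, M6 and 2712 held 0.477%, 0.368% and 0.428%, within or next to the liver range, and M74 held 18.7%. Among the libraries labelled heifer liver, L58 held 44.5%, above every muscle sample, L16 held 31.7% and 2728 held 18.4%. The 146 ids at least 8 times higher in bull liver than in heifer muscle, of which 145 were listed in bull muscle, moved the other way: they summed to 240775, 265745 and 239142 CPM in the libraries labelled bull muscle M12, M6 and 2712, against 3459 to 6264 CPM in the other 6 bull muscle samples outside M74, which had 135385 CPM. These 7 samples are set aside below, and the results that would have used them are given both ways. Without them, the members took 32.3% to 41.2% of reads in 6 bull muscle samples (37.8% ± 3.39, SD) and 0.412% to 0.589% in 7 heifer liver samples (0.467% ± 0.0598, SD).

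**Figure D1:**
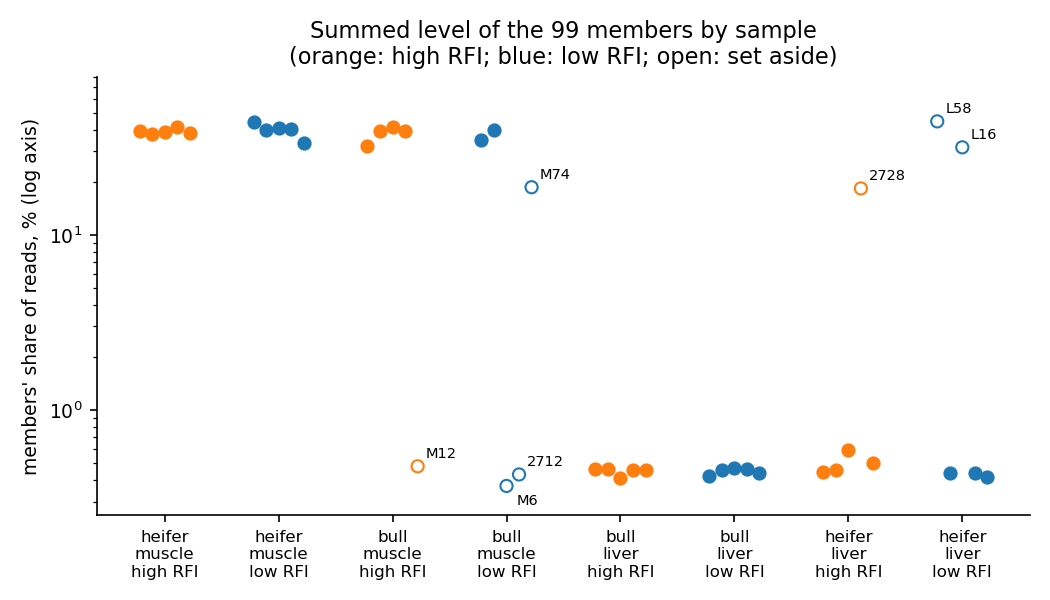
Summed CPM of the 99 members as a percentage of all reads (y axis, log scale) in each of the 40 samples, grouped by sex, tissue and RFI along the x axis. Each point is 1 sample, orange for high and blue for low RFI, and open points with a tag are the 7 samples set aside: M12, M6 and 2712 lie at 0.477%, 0.368% and 0.428%, next to the liver samples, while L58, L16, M74 and 2728 lie between 18.4% and 44.5%.

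Depth was not a limit on the members in muscle. The samples held 2368340 to 60929308 reads by the size of the smallest CPM step, and the kept muscle samples 10706400 to 30300700. A member had a median of 10915 reads per heifer muscle sample and at least 238. In bull liver the median was 346 reads and the lowest 19, in the shallowest sample, 2713. Outside 2713 no member fell under 81 reads in any bull liver sample.

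The 99 members spanned a wide range of muscle to liver ratios, from 8.03 to 1376 times with a median of 16.8. Most were close to the lower end: 47 members had ratios of 8 to under 16 and 25 of 16 to under 32. Another 27 were at least 32 times higher in muscle, 19 were over 100 times higher and 14 over 300 times. The highest ratio belonged to ENSBTAG00000005333, at 15230 ± 3476 CPM in heifer muscle and 11.1 ± 5.55 CPM in bull liver (SD, n = 10 each). All these ratios are what the rule selected on and carry no test.

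**Figure D2:**
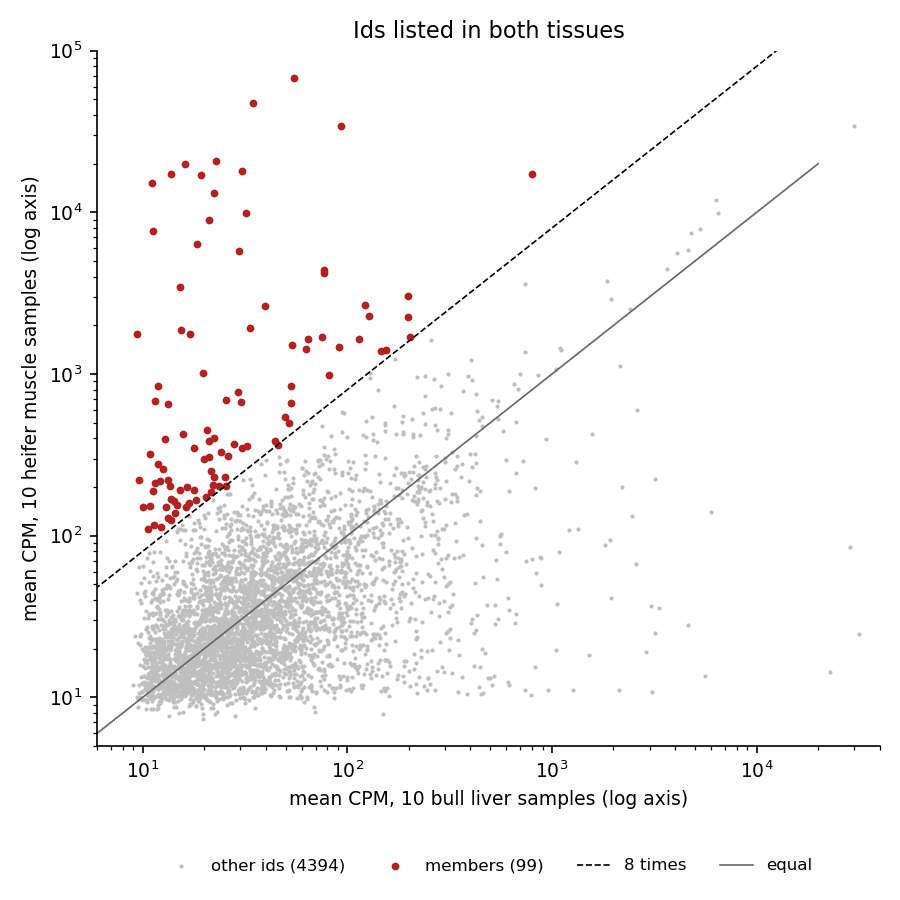
Mean CPM in the 10 heifer muscle samples (y axis) against the 10 bull liver samples (x axis), both on log scales, for the 4493 ids listed in both sets. Red points are the 99 members, all on or above the dashed line of 8 times, and grey points are the other 4394 ids. ENSBTAG00000046332, the member highest in heifer muscle, stands at 67766 CPM there and at 54.7 CPM in bull liver.

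Just inside the threshold were ENSBTAG00000005488 at 8.03 times (204 ± 25.9 CPM in heifer muscle, 25.4 ± 1.72 in bull liver), ENSBTAG00000009417 at 8.03 times and ENSBTAG00000001349 at 8.39 times. Just outside it were ENSBTAG00000018887 at 7.94 times (364 ± 120 CPM in heifer muscle, 45.9 ± 7.37 in bull liver), ENSBTAG00000019443 at 7.85 times and ENSBTAG00000006607 at 7.83 times. The gap at the boundary was smaller than the SD among samples, so membership of ids near it depends on the samples averaged. The rule also sees only ids that were listed in liver. In heifer muscle, 1054 of 5547 listed ids were not listed in bull liver, and these together held 23.0% of the reads. Such ids cannot be members however abundant they were in muscle, and why they were not listed in liver is not given.

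A few members dominated the muscle samples. The top 10 supplied 69.7% of the members' summed CPM in heifer muscle and 69.3% in bull muscle, and the top 20 supplied 86.8% and 86.2%. Of the 10 ids with the highest mean CPM in heifer muscle, 9 were members, and 8 of 10 were in bull muscle. The tenth id in heifer muscle, ENSBTAG00000043561, had a ratio of 1.14 and so was about as abundant in liver. Of the 10 highest members in each sex, 9 were the same ids.

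As the members could not be sorted by role, the 4 with the highest mean in the 6 bull muscle samples were taken as the leading genes of a single list. The first was ENSBTAG00000046332. It measured 79774, 72919, 50648, 73788 and 55456 CPM in high RFI heifer muscle and 95813, 63806, 69684, 63172 and 52604 in low RFI heifer muscle. In bull muscle it measured 61466, 54258, 68775 and 68593 CPM in high RFI and 42299 and 56710 in low RFI. The values overlapped between RFI groups in both sexes, and this single gene made up 17.2% of the members' CPM in heifer muscle and 15.5% in bull muscle. ENSBTAG00000018204 ranged from 17544 to 65188 CPM over the heifer muscle samples, lowest in heifer 2628. In bull muscle it was 6339 CPM in bull 2641 and 31253 to 54330 in the other 5 samples.

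ENSBTAG00000007090 was the member of this group whose level differed most between the muscle sets, with 5564 to 17299 CPM in heifers and 21733 to 36237 in bulls, ranges that did not overlap. ENSBTAG00000026986 ranged from 7311 to 28532 CPM in heifer and from 14897 to 32676 in bull muscle. It was again lowest in heifer 2628 and in bull 2641. These are CPM per gene and not per length, so the order of genes by CPM is not an order of transcript number.

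**Figure D3:**
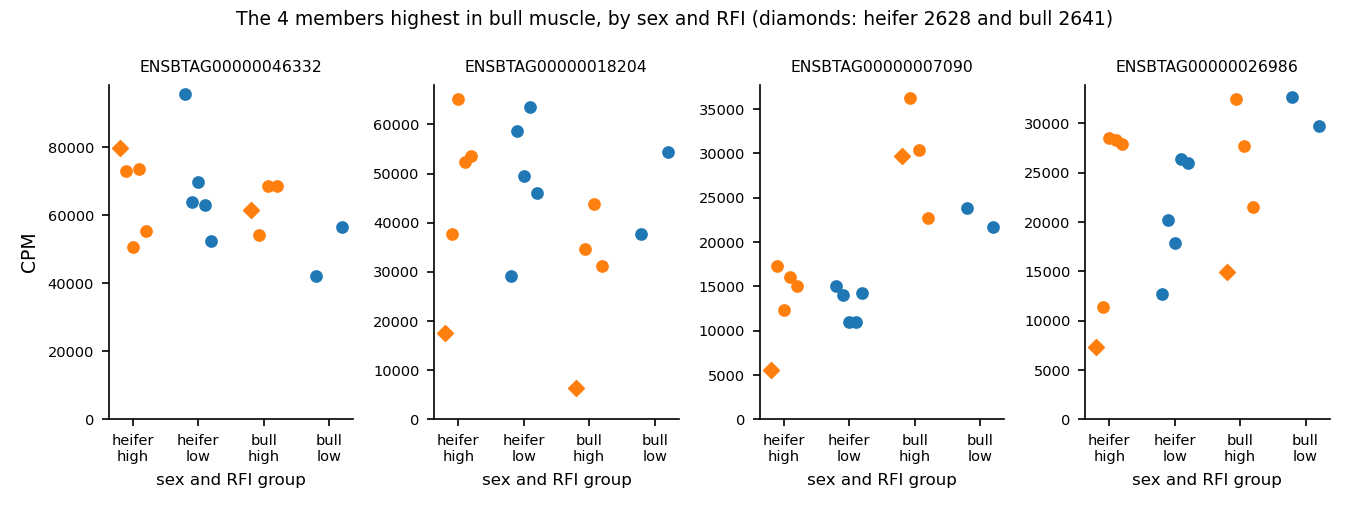
CPM (y axis, from 0) of the 4 members with the highest mean in bull muscle, 1 panel each, in 10 heifer and 6 bull muscle samples by RFI group (orange high, blue low). Each point is 1 sample and diamonds mark heifer 2628 and bull 2641, which hold the lowest values of ENSBTAG00000018204 and ENSBTAG00000026986 within their sex, while high and low RFI points of ENSBTAG00000046332 overlap in both sexes.

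Most members stood at nearly the same level in the muscle of both sexes. The mean in heifers divided by the mean in bulls had a median of 1.02 over the members, 95 of 99 lay within 1.5 times of equality, and 56 were higher in heifers. Over all 5358 ids listed in both muscle sets the median was 0.988 and 98.1% lay within 1.5 times. The 4 exceptions were ENSBTAG00000008401 at 5.48 times higher in heifers, ENSBTAG00000019915 at 1.53 times, ENSBTAG00000018598 at a ratio of 0.619 and ENSBTAG00000007090 at 0.480. ENSBTAG00000008401 measured 82.8 to 677 CPM in heifer muscle (median 383) and 25.6 to 116 in bull muscle (median 77.1), so the ranges overlapped. The low ratio of ENSBTAG00000018598 came with 1 sample, bull 2641, at 8999 CPM against 876 to 2240 in the other 5. These contrasts are descriptions: the heifer values helped to choose the members, which favours a higher mean in heifers, and the sexes were not tested against each other.

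Bull muscle and heifer liver were not used to choose the members and give the same contrast of tissues in other samples, although sex changes along with tissue there. Over the 6 bull muscle and 7 heifer liver samples, all 97 members listed in both were higher in muscle without any overlap between the samples. How many of all ids were free of overlap is not given, so the overlap counts in this paragraph are no result about the members. The ratio of means was at least 8 for 91 of 97, where 2.6% of all 5112 ids reached 8. It ran from 5.60 times for ENSBTAG00000009417, one of those at the boundary, to 924 times for ENSBTAG00000022158, with a median of 16.3 against 16.8 in the samples that chose the members. The 7 samples left out are those whose levels of these same genes went against or between the tissue labels, so this is a description. With all 20 samples as labelled, the test (limma on log2 of the scaled CPM + 1, p-values adjusted by Benjamini-Hochberg over all ids) called 16 of 97 members at an adjusted p under 0.1, all higher in muscle, where 10% of all ids were called higher in muscle. The smallest adjusted p of a member was 0.0737, for ENSBTAG00000002624, and no member kept its groups apart. The median member difference on the log2 scale was 1.70 with all 20 samples and 4.22 without the 7.

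Tags tied both tissues to 1 animal in 4 cases outside the set-aside samples. In each of them 1 of the 2 samples (the heifer's muscle or the bull's liver) was among those that chose the members, so the ratios within animals are descriptions. In heifer 2704, 94 of 97 members were at least 8 times higher in her muscle sample than in her liver sample, and the lowest was 5.87 times, where 3.82% of all ids reached 8. In heifer 2632, 81 of 97 were at least 8 times higher, with a lowest of 4.79 times, beside 2.51% of all ids. In bull 2723 the count was 89 of 99 with a lowest of 4.45 times, beside 2.3% of all ids. In bull 2641 it was 75 of 99, beside 1.75% of all ids. The lowest there were ENSBTAG00000008401 at 1.98 times, ENSBTAG00000020296 at 2.28 times and ENSBTAG00000023416 at 2.39 times, while ENSBTAG00000022158 reached 2688 times. No member was lower in muscle than in liver in any of these animals.

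In liver the members split into parts that behaved differently from sample to sample. The 72 members with a ratio under 32 were steady: in each of the 10 bull liver samples their median level was 7.07% to 8.21% of the heifer muscle mean, and in the 7 heifer liver samples 6.63% to 8.47%. Their coefficient of variation (CV) over bull liver samples had a median of 15.7%, close to the 15.9% over all 7363 ids listed there. The 14 members over 300 times higher in muscle varied far more. Their median level ran from 0.0650% to 0.218% of the heifer muscle mean in bull liver and from 0.0455% to 0.522% in heifer liver, and their CVs had a median of 44.2% in bull liver and 84.7% in heifer liver. In muscle the same 14 had a median CV of 25.2% in heifers and 20.4% in bulls, against 28.0% and 19.9% for the members under 32 times, so the difference in spread was seen in the liver sets.

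The 14 tended to move together in liver. In heifer liver, sample 2705 was the highest for 13 of the 14, by a median of 1.95 on the log2 scale over the median of the other samples, and sample 2670 was the lowest for all 14, by a median of -1.50. In bull liver the highest sample was 2713, 2703 or 2723 for all 14, with 6, 5 and 3 members. The median correlation between pairs of the 14, over the samples of a set, was 0.88 in heifer liver (n = 7 samples) and 0.70 in bull liver (n = 10 samples), and 0.32 and 0.21 in heifer and bull muscle. For the members under 32 times it was 0.02 and 0.00 in the liver sets. Single pairs of the 14 ran from -0.043 to 0.997 in heifer liver and from -0.129 to 0.988 in bull liver. Not every pair therefore moved together. The genes share libraries and depth, and these are descriptions. In heifer liver, samples 2705 and 2670 were both high RFI, as was L60, the highest for 1 member. The low RFI samples L59, 2632 and 2660 were highest or lowest for 0 of the 14. In bull liver both RFI groups were found at both ends. Of the highest samples, 2703 was high and 2713 and 2723 were low RFI. The lowest were 2701, 2641 and 68, high RFI, and 2669, low RFI, with 5, 3, 1 and 5 members.

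**Figure D4:**
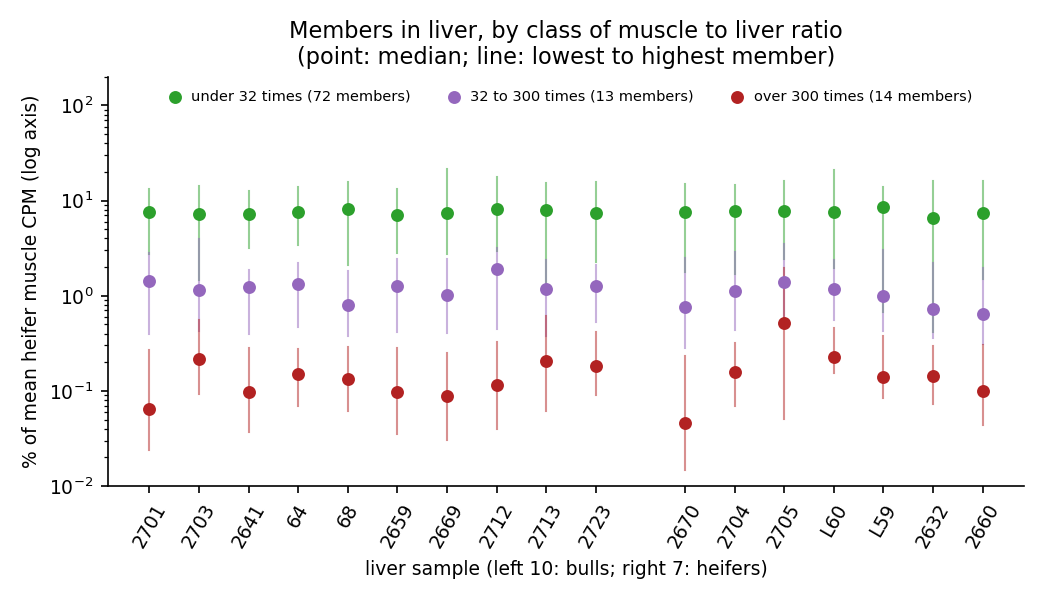
Level of the members in each kept liver sample as a percentage of their mean CPM in heifer muscle (y axis, log scale), with 10 bull liver samples on the left and 7 heifer liver samples on the right of the x axis. Points are medians and lines run from the lowest to the highest member of each class of muscle to liver ratio: 72 members under 32 times (green, 70 of them listed in heifer liver), 13 at 32 to 300 times (purple) and 14 over 300 times (red). Green medians stay between 6.63% and 8.47%, while red medians run from 0.0455% in heifer 2670 to 0.522% in heifer 2705.

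ENSBTAG00000046332 shows the size of these swings. Its liver levels were 10.8, 63.5, 272 and 126 CPM in high RFI heifers and 71.8, 51.5 and 35.7 CPM in low RFI heifers. In bull liver it measured 38.3, 79.2, 25.0, 46.9 and 44.5 CPM in high and 27.2, 24.5, 35.2, 133 and 93.1 CPM in low RFI animals. The highest heifer liver value was 25.2 times the lowest, and the lowest of the 16 kept muscle samples was still 155 times that highest liver value.

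At the other end, ENSBTAG00000014731 was by far the most abundant member in liver, at 797 ± 70.5 CPM in bull liver (SD, n = 10) and 750 to 986 CPM over the 7 heifer liver samples. It measured 17180 ± 3312 CPM in heifer muscle. The next in bull liver were ENSBTAG00000001349 at 202 ± 20.5 CPM and ENSBTAG00000019011 at 199 ± 24.0 CPM. By contrast 44 of the 99 members had a bull liver mean under 20 CPM, not far above the lowest mean of any listed id, 8.81 CPM. In bulk tissue, fewer cells carrying a transcript and less of it per cell cannot be told apart.

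Turning to feed efficiency, no member passed the test used here in any of the 4 RFI comparisons, and neither did any other id. The authors' own edgeR analysis called ids in heifer muscle and in bull liver at the same threshold, and no member was among them. The absence of calls over all ids therefore holds for the present fits only. Fold changes below are low minus high RFI on the log2(scaled CPM + 1) scale, from limma on samples scaled by the trimmed mean of M values (TMM), with Benjamini-Hochberg adjustment over all ids of the set. Within a group every sample had its own tag, so each was taken as a separate animal.

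In heifer muscle, with 5 high and 5 low RFI samples, 0 of 99 members and 0% of all 5547 ids were called at an adjusted p under 0.1. At an unadjusted p under 0.05 there were 6 members (6.06%) and 91 ids in all (1.64%), and all 6 members were higher in low RFI. The members as a list sat to one side: 77 of 99 had a higher mean in low RFI, with a median fold change of 0.23 and a range of -0.63 to 0.74, where the median of all ids was 0.01 and 51.4% were higher. This direction depends on the scaling. With library size alone, the median of all ids moved to -0.24 and that of the members to -0.03, and 43 of 99 were higher in low RFI. Relative to the median of all ids the members were higher by 0.22 under TMM and by 0.21 with library size alone, with 77 and 75 of 99 above that median. The members' share of all reads did not separate the groups, at 37.6% to 41.5% in high and 33.6% to 44.1% in low RFI heifers.

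Tag style, 4 digits or a short code, was the only label that could stand for a batch, and its meaning is not given. In heifers with 4-digit tags (3 high, 3 low) the median of the members was 0.28, and with short tags (2 high, 2 low) it was 0.11, with 79 and 65 of 99 members higher in low RFI. Leaving out any 1 sample kept the count of members higher in low RFI between 69, without 2628, and 80, without M70.

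The smallest p among members in heifer muscle belonged to ENSBTAG00000001601. It measured 2627, 5623, 5144, 5686 and 5478 CPM in high RFI and 6209, 6929, 8674, 6030 and 5543 CPM in low RFI heifers. Only 1 low RFI value fell below the highest high RFI value as CPM, and after scaling the groups did not overlap. The fold change was 0.74 ± 0.24 (SE), with an adjusted p of 0.999 from limma and an exact two-sided permutation p of 0.00794, the smallest that 5 against 5 allows.

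ENSBTAG00000019011 measured 1916 to 3491 CPM in high and 2439 to 4020 CPM in low RFI heifers, a fold change of 0.53 ± 0.20. The smallest p of members lower in low RFI belonged to ENSBTAG00000000434. It measured 4325, 1301, 1047, 1994 and 1443 CPM in high and 1788, 948, 949, 658 and 738 CPM in low RFI heifers. Its fold change was -0.63 ± 0.44, and the groups overlapped. Without 2628, the source of the first value, it was -0.27. ENSBTAG00000001941 followed at -0.32 ± 0.23, and at -0.13 without M70. High and low RFI samples did not overlap after scaling for 2 members, ENSBTAG00000001601 and ENSBTAG00000004371 (0.32 ± 0.16). That is 2.02% of the members, where 0.361% of all ids did not overlap.

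**Figure D5:**
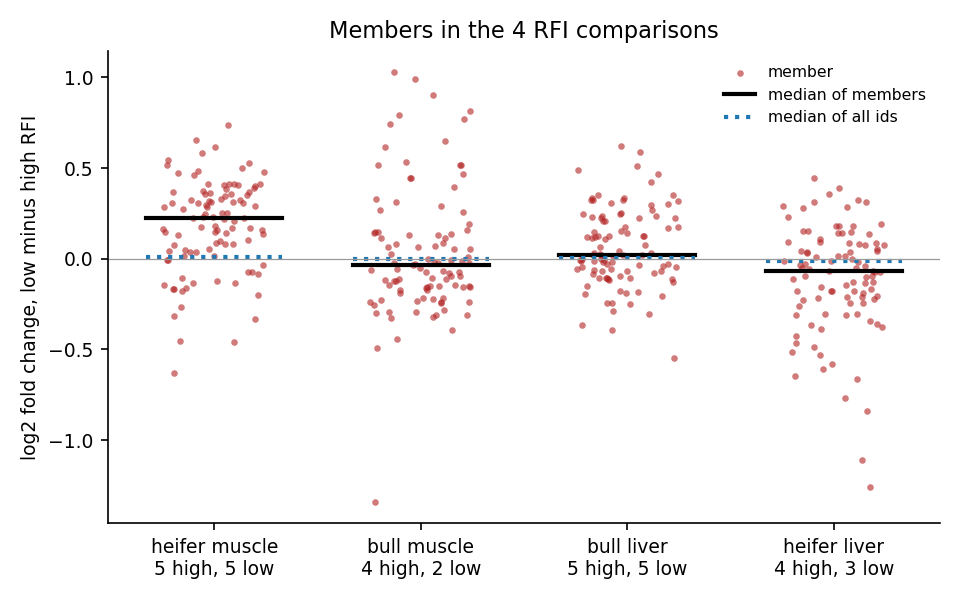
Log2 fold change of low minus high RFI (y axis) for each member (red points, spread sideways) in the 4 comparisons on the x axis, with the median of the members (black line) and of all ids (dotted blue line). In heifer muscle the members' median is 0.23 under TMM scaling, and in bull muscle, bull liver and heifer liver it is -0.03, 0.02 and -0.07, beside medians of all ids of 0.00, 0.00 and -0.01. No point passed the test.

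In bull muscle, 4 high and 2 low RFI samples remained, and an exact permutation test of a single gene cannot go below a p of 0.0667. Here 0 of 99 members and 0% of all 6004 ids were called. One member had an unadjusted p under 0.05 (1.01%), as had 123 of all ids (2.05%). The members lay on both sides, 41 higher and 58 lower in low RFI, with a median of -0.03 beside 0.00 for all ids. After scaling, groups did not overlap for 9 of 99 members, 9.09%, where 12.9% of all ids did not overlap.

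ENSBTAG00000004806 had the smallest p, with 163, 486, 444 and 347 CPM in high and 594 and 494 CPM in low RFI bulls. The fold change was 0.74 ± 0.33, with an adjusted p of 0.892 from limma. ENSBTAG00000016688 followed at 0.52 ± 0.24. The widest fold change was that of ENSBTAG00000018598, at -1.34 ± 0.75, with 8999, 2240, 1525 and 2226 CPM in high and 876 and 1390 CPM in low RFI bulls. Without bull 2641, the source of the first value, it was -0.67. ENSBTAG00000008884 was at -0.44 ± 0.25, with -0.24 without 2723 and -0.68 without M67. Within 4-digit tags (2 high, 1 low) the median of the members was -0.21 and within short tags (2 high, 1 low) 0.19, so the sign differed between them. With all 10 bull muscle samples as labelled the median was -1.08 and 1 of 99 members was higher in low RFI, since 3 of the 4 set-aside samples carry the low RFI label, and again no member was called.

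The RFI difference in muscle was set against sex in 1 fit of 16 samples over the 5358 ids listed in both muscle sets. The interaction called 0 of 99 members and 0% of all ids, with 1 member and 44 ids in all at an unadjusted p under 0.05. That member was ENSBTAG00000038865, at -0.77 ± 0.36 for the change in bulls minus the change in heifers, with an adjusted p of 1.000 from limma. The median of the members was -0.19 under TMM and 0.05 with library size alone, where the median of all ids was -0.03 and 0.21.

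In bull liver, with 5 samples a group, 0 of 99 members and 0% of all 7363 ids were called. At an unadjusted p under 0.05 there were 9 members (9.09%) and 555 ids in all (7.54%). The members were evenly placed, with 55 higher and 44 lower in low RFI and a median of 0.02 beside 0.00 for all ids. ENSBTAG00000001398 measured 66.8, 55.3, 54.4, 59.6 and 65.4 CPM in high and 69, 80.8, 135, 80.2 and 86.1 CPM in low RFI bulls. No values overlapped. The fold change was 0.59 ± 0.15, with an adjusted p of 0.643 from limma and an exact two-sided permutation p of 0.00794.

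ENSBTAG00000017462 did not overlap either, at 159 to 196 CPM in high and 207 to 245 CPM in low RFI bulls, a fold change of 0.35 ± 0.10. The paper selected 5 high and 5 low RFI bulls and describes biopsies of both tissues. Most tags in bull muscle nevertheless differ from those in bull liver, and which samples share an animal is not given beyond matching tags. In bull muscle the gene measured 1160 to 2207 CPM in 4 high and 1948 and 2355 CPM in 2 low RFI samples, with overlap. Bulls 2641 (high RFI) and 2723 (low RFI) gave both tissues, and the gene was lower in 2641 than in 2723 in each. The values were 1160 against 1948 CPM in muscle and 173 against 222 CPM in liver. The muscle sample of 2641 stood apart on many ids, as described below. The other high RFI bull muscle samples measured 1806 to 2207 CPM. Lower in low RFI by p were ENSBTAG00000017616 at -0.37 ± 0.13 and ENSBTAG00000003476 at -0.29 ± 0.11. The 2 members that did not overlap after scaling are 2.02% of the list, where 1.01% of all ids did not overlap. The short tags in bull liver were both high RFI, so no value within them can be had, and within 4-digit tags (3 high, 5 low) the median of the members was 0.02. Without 2713, the shallowest sample, 7 ids in all were called and none was a member.

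In heifer liver, with 4 high and 3 low RFI samples, 0 of 97 members and 0% of all 7231 ids were called. At an unadjusted p under 0.05 there were 3 members (3.09%) and 181 ids (2.5%). All 3 were lower in low RFI: ENSBTAG00000000434, ENSBTAG00000006823 and ENSBTAG00000001564. Of the members, 37 were higher and 60 lower in low RFI, with a median of -0.07 beside -0.01 for all ids. Without heifer 2705, the high RFI sample highest for 13 of the 14 members over 300 times, 50 of 97 were higher and the median was 0.01. With all 10 samples as labelled the median was 1.14 and all 97 were higher in low RFI, as 2 of the 3 set-aside samples are labelled low RFI, and no member was called.

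ENSBTAG00000000434 had the widest fold change there. It measured 31.2, 25.5, 36.9 and 29.9 CPM in high and 10.2, 6.39 and 22.9 CPM in low RFI heifer liver, without overlap. The fold change was -1.26 ± 0.33, with an adjusted p of 1.000 from limma and an exact two-sided permutation p of 0.0286, the smallest that 4 against 3 allows. In heifer muscle the fold change of the same gene was -0.63 ± 0.44, and -0.27 without 2628, with overlapping groups. It was -0.01 ± 0.28 in bull muscle and 0.25 ± 0.43 in bull liver, where the gene spread from 17.3 to 97.0 CPM with both extremes in low RFI. ENSBTAG00000006823 was at -0.46 ± 0.18 (-0.25 without 2632), ENSBTAG00000038079 at 0.28 ± 0.14 and ENSBTAG00000002624 at 0.45 ± 0.22 (0.30 without 2660). After scaling, groups did not overlap for 4 members, namely ENSBTAG00000000434, ENSBTAG00000006823, ENSBTAG00000038079 and ENSBTAG00000005488. They are 4.12% of the members, where 3.84% of all ids did not overlap. Within 4-digit tags (3 high, 2 low) the median of the members was -0.06 and within short tags (1 high, 1 low) -0.07.

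In each sex 1 muscle sample stood apart from the others, on the members and on other ids alike. Heifer 2628, high RFI, held the lowest value of the 10 heifer muscle samples for 39 of the 99 members and the highest for 27 more. Its median absolute distance from the median of the other 9 samples was 0.79 on the log2 scale, against 0.15 to 0.50 in the others. Bull 2641, also high RFI, was the lowest of the 6 bull muscle samples for 28 members and the highest for 39, with a distance of 0.48 against 0.17 to 0.27. Over the 5259 ids that are no members the same distance was 0.83 in 2628 and 0.45 in 2641, so it was not particular to the members. In 2628, 21 members were lower and 15 higher by over 1 on the log2 scale, and in 2641 13 were lower and 4 higher.

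Many members that were low in 1 of these animals were also low in the other. Of the 21 members low in 2628 and the 13 low in 2641, 11 were shared, which is 52.4% of the first list and 84.6% of the second. The matching shares over the other ids are not given, so these counts are no result about the members. No member was higher by over 1 in both, and 1 moved in opposite directions. ENSBTAG00000020296 measured 68.5 CPM in 2628 against 181 to 742 in the other heifer muscle samples, and 101 CPM in 2641 against 273 to 632 in the other bull muscle samples. Among those higher, ENSBTAG00000005353 measured 22560 CPM in 2628 against 2452 to 8888 in the other heifers. In bull 2641 it was 3281 CPM, the lowest of the 6. These pairs were chosen after their values were seen.

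Over the 99 members the distances of the 2 animals had a Pearson correlation of 0.59 and a Spearman correlation of 0.47, over genes that share 2 libraries and are not independent replicates. The members were not particular in this. Over the 5259 other ids the Pearson correlation was 0.53, and the sign was the same for 64.3% of them, as for 62 of the 99 members. Since both animals are high RFI, their values enter the high RFI means above, and the results without each are among those given.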

How the data were processed

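RNA sequencing of 40 biopsies was deposited as a table of CPM (counts per 1000000) per Ensembl gene id for each sample. Per the submitters' processing notes and methods, reads were checked with FastQC 0.11.5, aligned to UMD3.1 with STAR 2.5.1 and counted with HTSeq 0.6.1p2, and R 3.4 and edgeR 3.5 were used; how the authors turned counts into CPM and which ids they listed is not given in the sources used here. The deposited bull muscle values are also CPM, entered as signal because the last 1359 rows of each of these files repeat those of a liver file; those rows were left out. No gene coordinates or sequences are printed, since no genome or annotation of that build was used here.

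The members and the gene lists were chosen with earlier results of these data known. CPM values were whole multiples of a smallest step, from which depth (2368340 to 60929308 reads) was derived, with a largest deviation of 0.000275 reads; the values were nevertheless analysed as CPM, and no count model was fitted, because the steps were not visible from the smallest listed value in 36 of 40 samples. CPM were scaled by TMM (30% of fold changes and 5% of levels trimmed), log2 transformed with a pseudocount of 1 CPM and tested per id with limma 3.58.1 in R 4.3.3 (moderated test with a trend in variance). P-values were adjusted by Benjamini-Hochberg over all ids of a set, with a threshold of 0.1. Single genes were also tested by an exact two-sided permutation of the group labels. RFI was compared within heifer muscle, bull muscle (6 samples), bull liver and heifer liver (7 samples), as an interaction with sex in muscle (16 samples), and tissue between bull muscle and heifer liver (20 samples). The fits were tested on simulated data with a fixed spread for all genes, which was not matched to the spread of these data. How often the fits would miss a change here is therefore not known. No 2 libraries of a group matched: over 80 pairs the smallest mean chi-square per gene was 18.3.

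The plan allowed naming up to 3 members in each direction with the smallest p, in each RFI comparison and in the interaction. Named here are 2 higher and 2 lower in each RFI comparison, and fewer in the interaction. Also named are the 3 on either side of the ratio of 8 and the 3 highest in bull liver. The extremes of the bull muscle to heifer liver ratio follow and, as no role list could be matched, the 4 highest in bull muscle. Any other named id was chosen after its values were seen. The files list no antisense or overlapping partners, so reads shared between paralogs cannot be told apart. Alternatives were other scalings, pseudocounts, a minimum of 10 reads, tag style as a covariate, a threshold of 0.05 and each sample left out. Python 3.11.15, numpy 2.4.6, pandas 2.3.3 and matplotlib 3.10.9 were used.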

Additional observations from a re-analysis of the deposited data

Results flagged for a closer look

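A sample was marked where it lay far from the others of its group by Dixon's ratio, which chance does in about 1 of 20 groups. Of 54 groups of 4 or 5 samples examined on named members and on the members' sum, 7 were marked. The named members were chosen partly by p-values in these same samples. Groups also share samples, so the rate of 1 in 20 cannot be set against this count. In high RFI heifer muscle, 2628 held 4325 CPM of ENSBTAG00000000434 against 1047 to 1994 in the other 4 samples. It also held 2627 CPM of ENSBTAG00000001601 against 5144 to 5686. In low RFI heifer muscle, 2632 held 1788 CPM of ENSBTAG00000000434 against 658 to 949. In high RFI bull muscle, 2641 held 8999 CPM of ENSBTAG00000018598 against 1525 to 2240. In high RFI bull liver, the same bull 2641 had the lowest sum of the members, 4110 CPM against 4540 to 4626, and 17.2 CPM of ENSBTAG00000017616 against 18.1 to 18.4. In low RFI bull liver, 2712 held 135 CPM of ENSBTAG00000001398 against 69 to 86.1. The library labelled muscle of the same bull 2712, one of those set aside, held 123 CPM of that gene.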

How the results depend on the processing

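No member was called in any RFI comparison or in the interaction under any alternative run, and each comparison's count over all ids stayed at 0 except when 1 sample was left out. It was then 0 to 7 in bull liver, with 7 without 2713 and 1 without sample 64 or sample 68, and 0 to 2 in heifer liver, with 2 without L59. The direction of the list in RFI comparisons depended on scaling. With library size alone, the median of the members was -0.033 in heifer muscle, with 43 members higher in low RFI, -0.027 in bull liver and 0.053 for the interaction. Scaled to the ids that are no members, an alternative chosen after seeing the data, it was -0.037 in heifer muscle, again with 43 members higher, -0.029 in bull liver and 0.039 for the interaction. Left-out samples moved the median between -0.20 and 0.089 in bull muscle and between -0.30 and -0.062 for the interaction, the extremes being the fits without 1 of the 2 low RFI bulls, where the lone sample is assumed to vary like the other group. Using every sample as labelled gave medians of -1.08 in bull muscle, with 1 member higher, 1.14 in heifer liver, with 97 higher, and -1.22 for the interaction over 20 samples. In the contrast of bull muscle with heifer liver, leaving out the 7 samples raised the ids called from 1329 to 4010, the members called from 16 to 97 and the members' median from 1.70 to 4.22. The 7 are those whose member levels went against or between the tissue labels, so the values without them are no test of the members. A ratio of at least 4 gave 251 members and of at least 16 gave 52. Of the 7 samples set aside, M12, M6, 2712 and L58 held the members at the other tissue's level and M74, 2728 and L16 stood between the tissues, and the cause was not tested. No paired analysis was possible because the RFI groups share no animals and the labels give no replicate numbers. The planned count models (edgeR and DESeq2) were not run. Reads could be derived from the CPM steps, but the criterion set for using them as counts, a step visible from the smallest listed value, was not met in 36 of 40 samples. Precision in liver was limited by depth for the rarest members, down to 19 reads in 2713.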

Other observations

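The 3 set-aside libraries that lay between the tissues differed in how evenly they held the members. In M74, labelled bull muscle, the median level was 46.0% of the heifer muscle mean for the 14 members over 300 times, 47.8% for those at 32 to 300 times and 53.5% for those under 32 times. In 2728, labelled heifer liver, the same medians were 42.6%, 43.6% and 54.8%. In L16, labelled heifer liver, they were 80%, 67.3% and 74.6%, while L58 stood at 116%, 102% and 101%. Among the libraries labelled bull muscle at liver levels, the medians of the 14 members over 300 times were 0.0894% in M12, 0.0845% in M6 and 0.0702% in 2712, within the range of the 10 bull liver samples.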
